A study of Oryzias latipes with 48 samples.

Results

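The genes described here encode gonadotropin-releasing hormone (GnRH), its receptors and the kisspeptins of medaka (Oryzias latipes), a small fish that breeds in the warm season. They were chosen as the rows whose description in the deposited table names gonadotropin-releasing hormone or kisspeptin, which gave 9 of 26167 genes. Of these, gnrh1, gnrh2 and gnrh3 encode the hormone, gnrh-r1, gnrh-r2, gnrh-r3 and LOC101167607 (a GnRH II receptor-like gene) encode receptors, and kiss-1 and kiss-2 encode kisspeptins.

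GnRH is a short peptide that neurons of the preoptic area release at the pituitary. There it acts on receptors of the gonadotropes, the cells that secrete luteinizing hormone and follicle-stimulating hormone. In medaka gnrh1 is the form that reaches the pituitary, while gnrh2 is known from the midbrain and gnrh3 from the terminal nerve at the front of the brain. Kisspeptins are peptides that in mammals stimulate GnRH neurons through the receptor GPR54.

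RNA was sequenced from brain blocks (ventral telencephalon, hypothalamus and pituitary) of medaka kept outdoors. The fish were sampled around both equinoxes and both solstices, called spring, summer, autumn and winter below, at clock hours 2, 6, 10, 14, 18 and 22, with 2 libraries at each hour. The 48 libraries thus form 24 groups, 12 libraries for a season, and the design was meant to follow daily expression in each season. The sources used here give no strain, sex or age, no number of fish behind a library and no year for a season, so season cannot be told apart from year or batch. Whether each library came from its own fish is not stated either, and p-values refer to the spread among libraries.

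Levels are given in FPKM (fragments relative to transcript length and to the total of the library), so levels of different genes can be set side by side. FPKM values sum to 314605 to 359311 in a library, and they leave sequencing depth unknown. The tissue label was checked against marker genes. Of the markers found by name or description, all 7 of hypothalamic neurons and all 5 of the telencephalon reached a mean of 1 FPKM. The planned markers agrp, avp, pmch and emx1 were not found by name. Of 6 markers of pituitary cells other than gonadotropes, 5 reached 1 FPKM. The exception was the row named prl, at 0.134 FPKM, and a second prolactin gene was not in the list. Of 6 markers of the midbrain and hindbrain, 1 (tph2) reached 1 FPKM. Marker sums differed between seasons: the summed FPKM of the 5 neuron markers lay at 1182 to 1443 in spring, 1370 to 1760 in summer, 1376 to 1574 in autumn and 1156 to 1369 in winter. The block holds many cell types, so fewer cells of a type and less RNA per cell cannot be told apart. As in an earlier analysis of these data, 3 of the 12 spring libraries stood apart on the second principal component (scores of 21.1, 29.6 and 24.3, where the 9 others reached 13.9), library 1 of hour 2, library 1 of hour 18 and library 2 of hour 22, so differences that involve spring are given without them wherever the call changed.

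Mean levels of the 8 tested genes spanned 128-fold. Over the 48 libraries, mean FPKM was 14.9 for gnrh-r2, 13.3 for gnrh3, 3.78 for LOC101167607, 2.58 for kiss-2, 2.09 for gnrh1 and 1.54 for gnrh-r3, and these 6 genes were tested together with all genes of at least 1 FPKM. Mean FPKM of kiss-1 was 0.929 and that of gnrh-r1 was 0.117, and these 2 genes were tested in a separate fit of all genes of at least 0.1 FPKM. For gnrh-r1 this mean was reached only with the spring libraries, its highest season. The remaining gene, gnrh2, lay below 0.1 FPKM and was not tested.

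**Figure D1:**
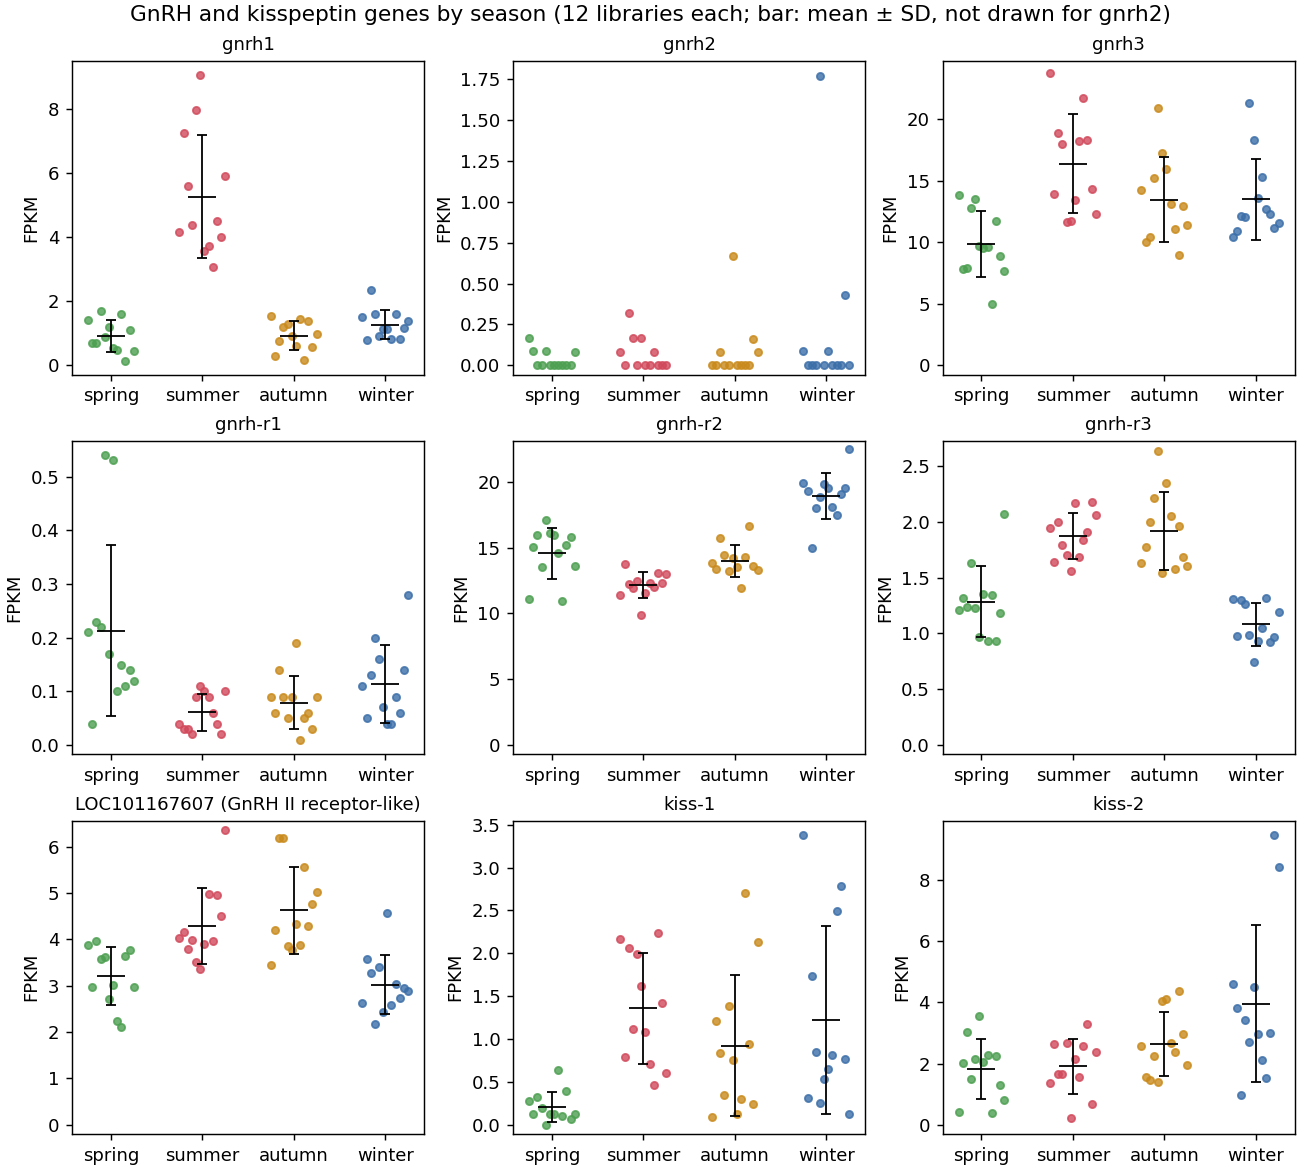
FPKM of the 9 genes in each season. Each point is 1 library (12 per season) and bars give the mean and SD, which are not drawn for gnrh2 because most of its values are 0. The vertical axes differ between genes. For gnrh1 the 12 summer libraries lie between 3.06 and 9.05 FPKM, above all libraries of the other seasons.

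Most genes of this tissue differed between seasons, so a season difference alone does not set these genes apart. All 6 genes of the higher-level fit differed between some seasons at an adjusted p below 0.05 (limma, Benjamini-Hochberg over 16622 genes), where 90.9% of all tested genes did. Between summer and winter all 6 differed, 4 higher and 2 lower in summer, against 74.9% of all genes (42.0% higher and 32.9% lower). Between summer and spring 5 of the 6 differed (73.8% of all genes), between autumn and spring 3 (72.4%) and between autumn and winter 3 (71.7%). Between winter and spring 3 of the 6 differed (49.4% of all genes), and between summer and autumn 2 did (43.6%). In the lower-level fit, kiss-1 and gnrh-r1 both differed between some seasons (82.9% of 22590 genes). Both differed between summer and spring (65.4% of all genes), autumn and spring (63.9%) and winter and spring (40.8%), and 0 of the 2 between summer and winter (66.9%), summer and autumn (35.5%) and autumn and winter (63.8%). Since gnrh-r1 passed the filter only with its spring libraries, its calls between some seasons and against spring are not independent of that filter. What follows is therefore told by the size, the direction and the season of each difference.

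Of the hormone genes, gnrh1 had the clearest season pattern. It was at its highest in summer and near 1 FPKM in the other seasons. Its FPKM in summer ranged from 3.06 to 9.05 with a median of 4.45, while in winter it ranged from 0.79 to 2.35 with a median of 1.16. In spring the lowest, median and highest FPKM were 0.14, 0.79 and 1.69, and in autumn they were 0.16, 0.94 and 1.54. The lowest summer library thus lay above the highest library of each other season, and the 3 other seasons overlapped one another. Only 22 of 16622 tested genes (0.132%) had all 12 summer libraries above the 36 others.

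Mean FPKM of gnrh1 was 5.27 ± 1.91 in summer (SD, n = 12), 1.27 ± 0.456 in winter, 0.926 ± 0.459 in autumn and 0.909 ± 0.496 in spring. The mean in summer was 5.79-fold that in spring, 5.69-fold that in autumn and 4.15-fold that in winter. On the log2(FPKM + 1) scale, which understates the change of genes near 1 FPKM, summer exceeded spring by 1.70 (SE 0.15, limma adjusted p = 2.5e-11), autumn by 1.69 (SE 0.15, adjusted p = 7.3e-10) and winter by 1.43 (SE 0.15, adjusted p = 7.6e-10). Among all 16622 genes, these differences ranked 28th from the highest for summer against spring, 9th for summer against autumn and 51st for summer against winter. The other 3 pairs of seasons did not pass the test: winter was 0.27 above spring (adjusted p = 0.13) and 0.25 above autumn (adjusted p = 0.12), and autumn and spring differed by 0.017 (adjusted p = 0.92). Without the 3 spring libraries that stood apart, the difference of winter above spring was 0.37 and passed the test (adjusted p = 0.047).

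Season accounted for 80.4% of the variance of gnrh1 on the log2 scale, clock hour for 3.70%, the interplay of season and hour for 4.35% and the spread between libraries of a group for 11.6%. The median over all tested genes was 49.5% for season. Several markers of the tissue were also highest in summer. Of the 7 markers of hypothalamic neurons, 4 had their highest season mean in summer (oxt, trh, crh and ghrh), pomc had it in autumn, npy in winter and hcrt in spring. Their sum lay at 591 to 849 FPKM in summer, 728 to 1549 in autumn, 596 to 1014 in winter and 467 to 719 in spring, and the high autumn sum came from pomc, which pituitary cells express too (mean of 581 FPKM in autumn and 354 in summer). The sum of the 5 telencephalon markers lay at 60.0 to 93.0 FPKM in summer, 61.9 to 82.8 in autumn, 56.0 to 70.8 in winter and 54.6 to 73.4 in spring. The part of these markers, and of the neuron markers given above, in the gnrh1 values was not tested.

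The terminal nerve form gnrh3 followed a different course, with spring as the low season. Its FPKM in spring ranged from 4.99 to 13.9 with a median of 9.59. In summer it ranged from 11.7 to 23.8 with a median of 16.2, in autumn from 8.98 to 20.9 with a median of 13.1 and in winter from 10.5 to 21.3 with a median of 12.2. The 4 seasons overlapped, and 8 of 12 summer libraries lay above all spring libraries.

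Mean FPKM of gnrh3 was 16.4 ± 4.03 in summer, 13.5 ± 3.28 in winter, 13.5 ± 3.46 in autumn and 9.84 ± 2.68 in spring (SD, n = 12). On the log2 scale spring was lower than summer by 0.69 (SE 0.11, limma adjusted p = 2.6e-06), than winter by 0.43 (SE 0.11, adjusted p = 0.0019) and than autumn by 0.42 (SE 0.11, adjusted p = 0.0012). Summer exceeded winter by 0.26 (SE 0.11, adjusted p = 0.038) and autumn by 0.27 (SE 0.11, adjusted p = 0.052), and winter and autumn differed by 0.011 (adjusted p = 0.94). The call of summer above winter was lost after median-ratio scaling (adjusted p = 0.11), and an exact permutation of season labels within clock hours gave p = 0.072 for it. The difference of summer above autumn lay at the threshold: it passed the test after median-ratio scaling (adjusted p = 0.0497), after quantile normalization (0.032), with array weights (0.028), in a fit of these 2 seasons alone (0.029), without the 3 spring libraries that stood apart (0.015) and in 15 of 48 fits that each left out 1 library.

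Because gnrh1 moved more than gnrh3, the balance of these 2 forms shifted with season. The ratio of mean FPKM of gnrh3 to that of gnrh1 was 3.11 in summer, against 10.8 in spring, 10.7 in winter and 14.6 in autumn.

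The midbrain form gnrh2 was at or near 0 in most libraries. It was listed at 0 in 31 of 48 libraries and at 0.08 to 0.17 FPKM in 13. In the remaining 4 it stood at 0.32 FPKM (summer, hour 6), 0.43 (winter, hour 22), 0.67 (autumn, hour 10) and 1.77 (winter, hour 10), each time in a single library whose partner at the same hour stood at 0.17 or below. The winter hour 10 library with 1.77 FPKM had a sum of midbrain and hindbrain markers of 1.96 FPKM, with 34 of the other libraries above it and 13 below, and a sum of hypothalamic neuron markers of 1014 FPKM, with 2 libraries above it and 45 below. Their part in its gnrh2 value was not tested.

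The 4 receptor genes fell into different patterns. By far the most abundant, gnrh-r2, was highest in winter and lowest in summer, the season in which gnrh1 was highest. FPKM of gnrh-r2 ranged in winter from 15.0 to 22.5 with a median of 19.2, and in summer from 9.85 to 13.8 with a median of 12.2. In spring the lowest, median and highest FPKM were 11.0, 15.1 and 17.1, and in autumn they were 11.9, 13.7 and 16.7. No summer library reached the lowest winter library, which was so for 9.97% of all tested genes, and 11 of 12 winter libraries lay above all autumn libraries.

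Mean FPKM of gnrh-r2 was 18.9 ± 1.77 in winter, 14.6 ± 1.95 in spring, 14.0 ± 1.22 in autumn and 12.2 ± 0.985 in summer (SD, n = 12). On the log2 scale summer was below winter by 0.60 (difference -0.60, SE 0.05, limma adjusted p = 5.6e-11), below spring by 0.24 (difference -0.24, adjusted p = 2.8e-04) and below autumn by 0.19 (difference -0.19, adjusted p = 0.0053). Winter exceeded spring by 0.36 (adjusted p = 4.2e-06), and autumn was below winter by 0.41 (difference -0.41, adjusted p = 1.1e-07). Its difference between summer and winter ranked 1069th from the lowest among 16622 genes, so many genes fell further. Spring and autumn did not differ beyond their spread (log2 difference of autumn minus spring -0.046, adjusted p = 0.45), but after median-ratio scaling autumn was below spring (-0.13, adjusted p = 0.020), as it was without the 3 spring libraries that stood apart (-0.13, adjusted p = 0.017).

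The genes gnrh-r3 and LOC101167607 shared another pattern, with summer and autumn high and spring and winter low. FPKM of gnrh-r3 ranged from 1.56 to 2.18 in summer (median 1.88) and from 1.54 to 2.63 in autumn (median 1.87). In winter it ranged from 0.74 to 1.32 (median 1.02) and in spring from 0.93 to 2.07 (median 1.24). All summer and all autumn libraries lay above all winter libraries, as for 13.8% and 11.9% of all tested genes, while spring overlapped with every other season.

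For gnrh-r3, autumn exceeded winter by 0.48 on the log2 scale (SE 0.06, limma adjusted p = 1.2e-07) and spring by 0.36 (SE 0.06, adjusted p = 1.5e-05). Summer exceeded winter by 0.47 (SE 0.06, adjusted p = 1.8e-07) and spring by 0.34 (SE 0.06, adjusted p = 2.8e-05). Neither summer and autumn (adjusted p = 0.86) nor spring and winter (adjusted p = 0.097) differed beyond their spread.

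FPKM of LOC101167607 ranged from 3.44 to 6.19 in autumn (median 4.30) and from 3.35 to 6.35 in summer (median 4.01). In spring it ranged from 2.11 to 3.96 (median 3.30) and in winter from 2.18 to 4.56 (median 2.91). All seasons overlapped for this gene. On the log2 scale autumn exceeded winter by 0.48 (SE 0.08, limma adjusted p = 6.1e-06) and spring by 0.42 (SE 0.08, adjusted p = 4.3e-05), and summer exceeded winter by 0.40 (SE 0.08, adjusted p = 7.5e-05) and spring by 0.33 (SE 0.08, adjusted p = 6.0e-04). Within the pairs summer and autumn (adjusted p = 0.41) and spring and winter (adjusted p = 0.53) no difference passed the test.

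Single markers of several cell types moved with these 2 receptor genes. The sum of the 2 myelin markers lay at 170 to 262 FPKM in summer and 218 to 333 in autumn, but at 81.5 to 122 in spring and 61.1 to 96.0 in winter. The sum of the 2 radial glia markers lay at 346 to 504 in summer and 428 to 588 in autumn, against 250 to 374 in spring and 309 to 430.4 in winter. Each of these sums came almost wholly from 1 gene, mpz for myelin and fabp7 for radial glia, and the second marker of each list ran differently. Mean FPKM of mbp was 7.56 in spring, 6.84 in summer, 7.47 in autumn and 6.03 in winter, and that of slc1a3 was 0.72 in spring, 1.16 in summer, 0.70 in autumn and 0.75 in winter. The sums for neurons, given above, and for red blood cells (8 markers, on average 1193 FPKM in summer, 1026 in autumn, 614 in winter and 269 in spring) were also higher in summer and autumn. The neuron sum came mostly from snap25 (mean of 958 FPKM) and the red blood cell sum from gb_101170712 and gb_101171201 (492 and 281). Like snap25, the neuron markers stmn2, syt1 and elavl4 had higher means in summer and autumn. The marker elavl3 did not, at 67.7 FPKM in spring, 69.5 in summer, 65.5 in autumn and 66.9 in winter. The part of all these markers in the receptor values was not tested.

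The gene gnrh-r1 was expressed near the lower limit of the table. In spring its FPKM ranged from 0.04 to 0.54 with a median of 0.16, and in winter from 0.04 to 0.28 with a median of 0.10. In autumn the range was 0.01 to 0.19 and in summer 0.02 to 0.11. Its mean was 0.213 FPKM in spring, 0.114 in winter, 0.0792 in autumn and 0.0608 in summer. It thus reached the filter of 0.1 FPKM only with its spring libraries, and tests against spring are not independent of that filter. On the log2(FPKM + 0.1) scale summer was below spring (difference -0.85, SE 0.19, limma adjusted p = 3.2e-04), and so was autumn (difference -0.71, SE 0.19, adjusted p = 0.0020). The difference of winter below spring (-0.48, SE 0.19, adjusted p = 0.048) lost its call in 37 of 48 fits that each left out 1 library and without the 3 spring libraries that stood apart (adjusted p = 0.19). Among the 6 markers of pituitary cells other than gonadotropes, growth hormone (LOC101171460) had the same order of seasons as gnrh-r1, with means of 3437 FPKM in spring, 2467 in winter, 1919 in autumn and 1277 in summer, and it made up most of their sum (1399 to 5092 FPKM in spring, 1684 to 3730 in winter, 1252 to 3060 in autumn and 1200 to 1856 in summer). The other 5 did not follow that order: somatolactin (LOC100049402) was highest in summer (197 FPKM) and lowest in winter (72.8), pou1f1 and the thyrotropin beta gene LOC101171658 were lowest in winter, the thyrotropin beta gene LOC105354380 was highest in autumn and prl, near 0 throughout, was highest in summer. The part of these markers in the gnrh-r1 values was not tested.

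The weight of the receptors therefore differed with season. Mean FPKM of gnrh-r2 was 17.5-fold that of gnrh-r3 in winter and 6.50-fold in summer, and 6.27-fold that of LOC101167607 in winter and 2.84-fold in summer.

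**Figure D2:**
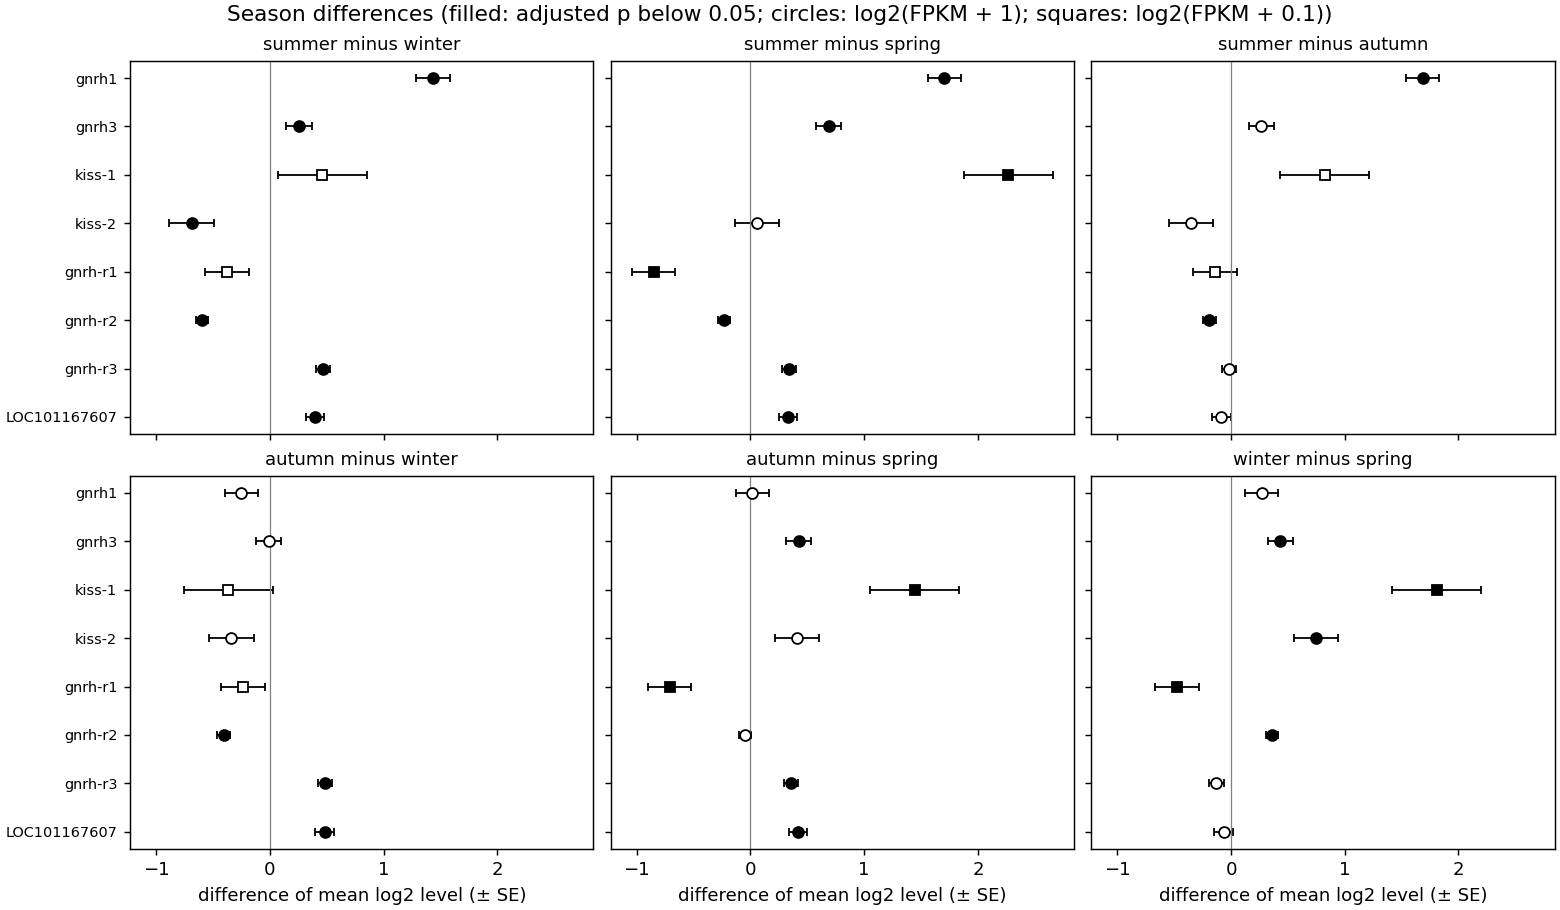
Season differences of the 8 tested genes. Each panel is 1 pair of seasons, the horizontal axis gives the difference of mean log2 level with its SE, circles are log2(FPKM + 1) and squares log2(FPKM + 0.1), and filled symbols have an adjusted p below 0.05. The summer differences of gnrh1 lie between 1.43 and 1.70, while those of gnrh-r2 lie below 0.

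The lowest mean FPKM of kiss-1 was in spring. For kiss-2 the mean over all 12 libraries was also lowest in spring, but spring and summer did not differ beyond their spread. Its median was lower in summer than in spring. Without the 3 spring libraries that stood apart, summer was below spring for kiss-2 (log2 difference -0.16, limma adjusted p = 0.49). The highest mean was in winter for kiss-2 and in summer for kiss-1. For kiss-1, summer and winter did not differ beyond their spread (limma adjusted p = 0.31). For kiss-2 winter had the highest mean, with FPKM from 0.98 to 9.48 and a median of 3.21. In autumn it ranged from 1.39 to 4.37 (median 2.48), in summer from 0.21 to 3.29 (median 1.92) and in spring from 0.39 to 3.55 (median 2.04). The seasons overlapped, and the spread among winter libraries was wide. Winter had the highest hourly mean at hours 2, 10 and 22 (4.21, 3.605 and 8.95 FPKM). Spring had it at hour 6 (2.27, against 2.205 in winter), and autumn at hours 14 (3.395 against 2.545) and 18 (3.37 against 2.255). No fit left out both hour 22 libraries of winter, so their part in the winter differences was not tested.

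Mean FPKM of kiss-2 was 3.96 ± 2.58 in winter, 2.65 ± 1.05 in autumn, 1.91 ± 0.886 in summer and 1.81 ± 0.977 in spring (SD, n = 12). Winter exceeded spring by 0.75 on the log2 scale (SE 0.19, limma adjusted p = 0.0023), and summer was below winter by 0.69 (difference -0.69, SE 0.19, adjusted p = 0.0023). Neighbours in the order from winter to autumn (adjusted p = 0.12), autumn to summer (adjusted p = 0.15) and summer to spring (adjusted p = 0.79) did not differ beyond their spread. The 3 spring libraries that stood apart were also the lowest for kiss-2, at 0.39, 0.41 and 0.82 FPKM, against 1.29 to 3.55 in the 9 others. Without them winter exceeded spring by 0.53 (adjusted p = 0.040).

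For kiss-1, the gene whose product the table calls metastin, spring was the low season. Its FPKM in spring ranged from 0 in 1 library to 0.64, with a median of 0.13. In summer it ranged from 0.47 to 2.24 (median 1.27), in winter from 0.13 to 3.38 (median 0.795) and in autumn from 0.09 to 2.70 (median 0.80). Of the 12 summer libraries 10 lay above all spring libraries, while autumn and winter spread from the spring level to beyond the summer level.

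Mean FPKM of kiss-1 was 1.36 ± 0.649 in summer, 1.23 ± 1.097 in winter, 0.923 ± 0.823 in autumn and 0.211 ± 0.176 in spring (SD, n = 12). On the log2(FPKM + 0.1) scale summer exceeded spring by 2.27 (SE 0.39, limma adjusted p = 1.1e-05), winter did so by 1.81 (SE 0.39, adjusted p = 5.4e-04) and autumn by 1.44 (SE 0.39, adjusted p = 0.0021). Among 22590 genes the difference of winter above spring ranked 13th from the highest and that of summer above spring 33rd. Summer, autumn and winter did not differ beyond their spread (adjusted p = 0.10 to 0.43). The spread between the 2 libraries of a group was 1.02 on the log2 scale (SD), against a median of 0.19 over all genes of this fit. The ratio of mean FPKM of kiss-2 to that of kiss-1 was 8.61 in spring, 3.23 in winter, 2.87 in autumn and 1.41 in summer.

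Genes for the kisspeptin receptor GPR54 are not among the 9 chosen genes, since their description does not name kisspeptin, and they were added with their values known. LOC101162001, described as G-protein coupled receptor 54, had a mean of 6.64 FPKM and, like kiss-2, was highest in winter. Its FPKM ranged from 7.46 to 11.8 in winter, 3.23 to 6.91 in autumn, 4.15 to 7.71 in summer and 5.11 to 8.55 in spring, and no autumn library reached a winter library (so for 6.86% of all tested genes). On the log2 scale winter exceeded spring by 0.47 (SE 0.05, limma adjusted p = 3.1e-08), summer was below winter by 0.60 (difference -0.60, adjusted p = 1.6e-11) and autumn by 0.69 (difference -0.69, adjusted p = 1.1e-12). A GPR54-like gene, LOC101172085, lay at 0.13 to 0.63 FPKM in all 48 libraries, with spring as its low season. Its mean FPKM was 0.278 ± 0.0900 in spring, 0.407 ± 0.108 in summer, 0.399 ± 0.137 in autumn and 0.388 ± 0.109 in winter (SD, n = 12), and spring overlapped with every other season. On the log2(FPKM + 0.1) scale summer exceeded spring by 0.43 (SE 0.16, limma adjusted p = 0.017) and autumn did so by 0.39 (SE 0.16, adjusted p = 0.033), while winter above spring missed the threshold (0.38, adjusted p = 0.054). The call of autumn above spring was lost after median-ratio scaling (adjusted p = 0.076) and in 9 of 48 fits that each left out 1 library, and that of summer above spring in 1 of them, without library 2 of summer hour 2 (adjusted p = 0.0504). Winter above spring passed the test after quantile normalization (adjusted p = 0.025) and in 8 of those 48 fits. An exact permutation of season labels within clock hours gave p = 0.0073 for it. The limma test for any season difference (adjusted p = 0.043) lost its call in 23 of the 48 fits.

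Daily profiles were tested with a 24 h cosine curve in each season, and none of the 8 tested genes had a rhythm that passed the test. Of the 6 genes of the higher-level fit, 0 were called for the curve averaged over seasons, where 13.5% of all tested genes were (limma, Benjamini-Hochberg adjusted p below 0.05). The count was also 0 in spring (2.59% of all genes), summer (13.6%), autumn (16.1%) and winter (1.53%), and for a difference of the curves between seasons (21.5%). At an unadjusted p below 0.05 there were 2 for the averaged curve (gnrh1 and gnrh3), 1 in winter (gnrh3) and 1 for a difference between seasons (kiss-2). The shares of all genes given here are for adjusted p. Those at an unadjusted p below 0.05 were not computed, so these counts do not set the genes apart. Of the 2 genes of the lower-level fit 0 were called for the averaged curve (9.29% of all genes), in spring (1.72%), summer (9.51%), autumn (11.0%) or winter (0.854%), or for a difference between seasons (14.6%), and gnrh-r1 in spring was the single one with an unadjusted p below 0.05. A limma F test over the 6 clock hours, which assumes no curve shape, also called 0 of the 6 genes of the higher-level fit. It called 16.8% of all genes over the seasons together, 6.28% in spring, 15.1% in summer, 23.5% in autumn, 2.78% in winter and 22.5% for a difference between seasons.

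The averaged curve of gnrh1 had an amplitude of 0.19 (SE 0.07) on the log2 scale from mean to peak, with a peak at hour 6.13 (adjusted p = 0.15). That of gnrh3 had an amplitude of 0.17 (SE 0.06) and a peak at hour 9.74 (adjusted p = 0.12). Leaving out library 1 of spring hour 18 brought gnrh1 to an adjusted p of 0.049, and no other of the 48 fits that each left out 1 library did so.

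**Figure D3:**
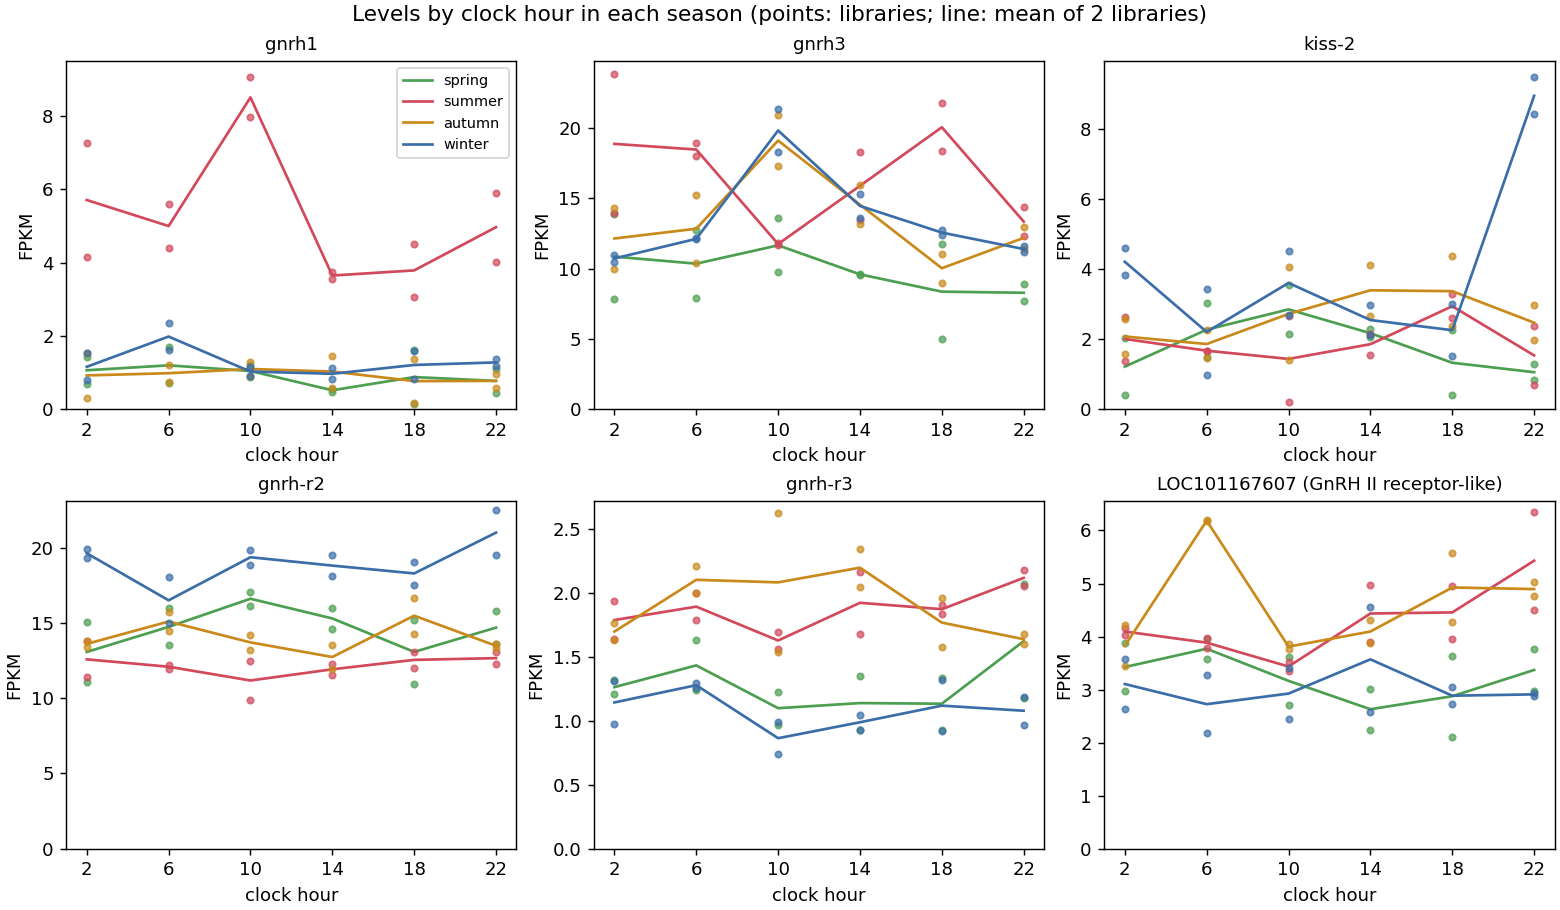
FPKM of 6 genes against clock hour. Points are libraries (2 per hour and season), lines join the mean of the 2 and colours mark seasons. The summer curve of gnrh1 lies above the others at every hour, and the winter values of kiss-2 at hour 22 (9.48 and 8.42) lie above the other winter values.

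Some hours stood out in both libraries although the tests over hours did not pass. The hours named here and in the next paragraph were picked for this, and the share of all genes with such an hour was not computed. In summer gnrh1 was at 7.96 and 9.05 FPKM at hour 10, above the 10 other summer libraries (3.06 to 7.25), and its lowest hourly mean was at hour 14, from 3.56 and 3.73. In winter and in autumn gnrh3 was highest at hour 10, with 21.3 and 18.3 FPKM in winter against 10.5 to 15.3 in the other libraries, and with 20.9 and 17.3 in autumn against 8.98 to 15.9. In summer, hour 10 was in contrast the lowest hour of gnrh3, with 11.7 and 11.8 FPKM. The difference of the gnrh3 curves between seasons did not pass the test (adjusted p = 0.25). Both libraries of an hour were also highest for gnrh1 in winter at hour 6 (2.35 and 1.61 FPKM, against 0.79 to 1.59). For gnrh-r2 this was so in spring at hour 10 (17.06 and 16.14 FPKM, against 10.97 to 15.97).

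For kiss-2 the wide spread in winter came from hour 22, with 9.48 and 8.42 FPKM, against 0.98 to 4.59 in the 10 other winter libraries. The limma F test over winter hours gave it an adjusted p of 0.15 (unadjusted 0.011). LOC101167607 was highest in autumn at hour 6, with 6.18 and 6.19 FPKM, against 3.44 to 5.57 in the other autumn libraries, and the limma F test over autumn hours gave it an adjusted p of 0.13 (unadjusted 0.048). The 6 hours of each season cover 1 day, so a daily change cannot be told apart from a drift over the sampling.

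The gonadotropin subunit genes were also at their highest in summer. Folds in this and the following paragraphs are ratios of mean FPKM, and p-values come from the log2(FPKM + 1) values. Expression of lhb, which encodes the beta subunit of luteinizing hormone, was 157 ± 56.2 FPKM in summer, 37.7 ± 10.1 in autumn, 8.85 ± 2.76 in spring and 7.14 ± 1.42 in winter (SD, n = 12). For lhb and gnrh1 alike, summer was above each other season, and lhb was also 5.28-fold higher in autumn than in winter (limma adjusted p = 2.5e-15), a pair in which gnrh1 was not called. The beta subunit of follicle-stimulating hormone, fshb, was 3.72-fold higher in summer than in autumn (183 ± 46.0 against 49.2 ± 10.7 FPKM, limma adjusted p = 1.8e-11), and cga, the shared alpha subunit, was 2.14-fold higher in summer than in winter (760.4 ± 134 against 355 ± 106 FPKM, adjusted p = 4.3e-12). Against spring, summer was 1.84-fold higher for fshb and 1.32-fold for cga. Unlike gnrh1, fshb and cga were also higher in spring than in autumn (2.02-fold and 1.535-fold).

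**Figure D4:**
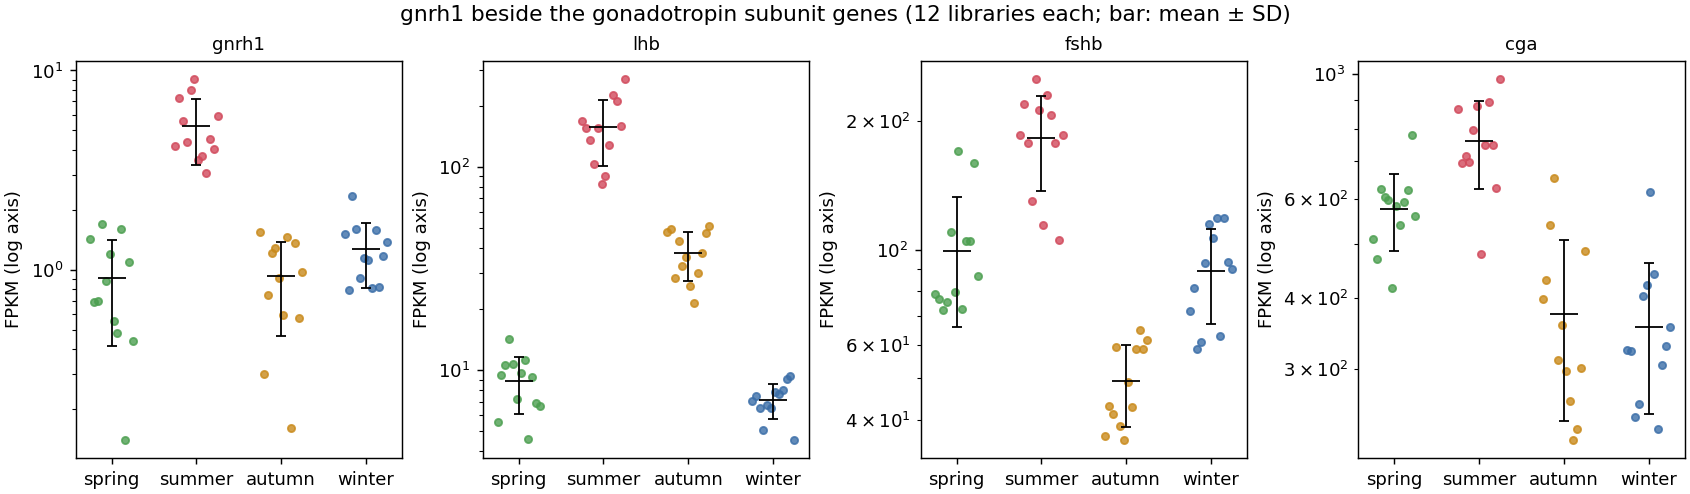
FPKM of gnrh1 and of the gonadotropin subunit genes lhb, fshb and cga by season, on log axes. Each point is 1 library (12 per season) and bars give the mean and SD. All 12 summer libraries of lhb (82.3 to 270.6) lie above the autumn libraries (21.5 to 51.4) and above those of spring and winter. Summer libraries lay above all 36 others for 0.132% of all tested genes.

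Further genes of the same system were followed in lists drawn up with earlier results known. Among 13 tested neuropeptide regulators of GnRH and gonadotropin release, 2 were called higher and 6 called lower when summer was set against winter, where 42.0% of all tested genes were called higher and 32.9% lower. The median log2 difference of these 13 genes was -0.11, against 0.05 over all tested genes. The highest difference was that of the neuropeptide B gene npb_105354556, at 327 ± 57.4 FPKM in summer and 61.4 ± 12.3 in winter (5.32-fold, limma adjusted p = 4.5e-21). Lower in summer were the tachykinin genes tac1 (43.7 ± 8.49 against 89.3 ± 11.7 FPKM) and tac3 (17.7 ± 1.19 against 27.6 ± 4.30 FPKM), of which the second encodes neurokinin B, a stimulator of GnRH release in mammals.

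Of 8 tested genes for sex steroid receptors and brain aromatase, 5 were called higher and 1 called lower when summer was set against winter, beside 42.0% and 32.9% of all genes (median log2 difference 0.26, against 0.05 over all genes). The aromatase gene cyp19b, whose product makes estrogens in the brain, and the progesterone receptor gene pgr were 4.99-fold and 1.83-fold higher in summer than in winter (adjusted p = 8.9e-22 and 1.1e-07, limma). An estrogen receptor beta gene, esr2_100049269, was 1.97-fold lower in summer than in spring (2.88 ± 0.315 against 5.67 ± 0.661 FPKM, limma adjusted p = 3.9e-17).

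GnRH receptors signal through Gq proteins and phospholipase C. Of 17 tested genes of this route 7 were called higher and 7 called lower when summer was set against winter, beside 42.0% and 32.9% of all genes (median log2 difference 0.02, against 0.05). Both of the following were higher in summer, the phospholipase C gene LOC101175365 at 142 ± 8.10 against 85.9 ± 2.72 FPKM and the protein kinase C delta gene LOC101162283 at 2.21 ± 0.282 against 0.912 ± 0.128. plcb2, another phospholipase C gene, was 2.40-fold lower in autumn than in winter. Of 8 tested genes that process neuropeptide precursors, 3 were called higher and 5 called lower when summer was set against winter, with the same background of 42.0% and 32.9% (median log2 difference -0.26, against 0.05). The carboxypeptidase gene cpe (268 ± 17.5 against 389 ± 19.5 FPKM) and the convertase gene pcsk2 (118 ± 5.40 against 156 ± 10.6) were lower, while the convertase gene pcsk1 was 1.44-fold higher in summer than in spring.

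Of 14 tested genes for the migration and development of GnRH neurons, 8 were called higher and 3 called lower when summer was set against winter (42.0% and 32.9% of all genes), with a median log2 difference of 0.13 (0.05 over all genes). Between summer and spring, wdr11 was 1.55-fold higher in summer, the prokineticin gene prok2 was 1.59-fold higher and the prokineticin receptor gene LOC101170153 was 1.75-fold lower. Of 10 tested transcription factor genes of gonadotropes, 2 were called higher and 5 called lower when summer was set against winter (42.0% and 32.9% of all genes), with a median log2 difference of -0.12. Among them gata2 was 3.62-fold lower in summer than in spring, foxl2 was 3.23-fold higher in autumn than in spring and the early growth response 1 gene LOC101160576 was 2.91-fold lower in autumn than in winter.

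The genes whose group means followed gnrh1 most closely over the 24 groups were f13a1, a coagulation factor subunit (Pearson r = 0.93), a peptide YY-like gene (LOC101160582, r = 0.90), npb_105354556 (r = 0.89), add1, which encodes the cytoskeletal protein adducin (r = 0.87), and a cholecystokinin gene (LOC101167231, r = 0.87). Correlations over group means include the differences between seasons, and the part of the high summer values of gnrh1 in them was not tested. Once the season mean was taken from each of the 48 libraries, the highest correlations with gnrh1 were 0.53 for c14h5orf15, 0.50 for mtfr1l and 0.48 for LOC101158845, and none of the 5 genes above was among the 5 highest.

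For the other genes the closest over the 24 group means were LOC101159618, a leucine-rich repeat gene, for gnrh-r2 (r = 0.96), aggrecan (LOC101156813) for gnrh-r3 (r = 0.93), marcks, a protein kinase C substrate, for LOC101167607 (r = 0.91), tp53bp1 for kiss-2 (r = 0.88) and lage3 for gnrh3 (r = 0.80). Among the 9 genes themselves, gnrh-r3 and LOC101167607 followed each other (r = 0.80 over the 24 group means), gnrh-r2 and kiss-2 did so less closely (r = 0.66), and gnrh-r2 ran against gnrh-r3 (r = -0.72) and gnrh1 (r = -0.54). The points share their libraries and the main season axis of the data, so these values are descriptions of the groups sampled here.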

How the data were processed

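RNA from medaka brain blocks was measured in 48 libraries as poly-A selected, strand-specific, paired-end RNA-seq, per the labels. The authors deposited FPKM values for 26167 genes; per the submitters' processing notes the tools were Bowtie2 2.2.5 and RSEM 1.2.12, and the genome build is not given in the sources used here. The depth per library is unknown, since no read counts were used here, and no interval for counting error is given. Gene IDs were matched to RefSeq names for 25080 genes, including the 9 described here, none of which shares all its values with another gene.

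Values were taken as log2(FPKM + 1) for genes with a mean of at least 1 FPKM (16622 genes). Genes below that mean were read from a second fit of log2(FPKM + 0.1) with a mean of at least 0.1 FPKM (22590 genes). Tests used limma 3.58.1 with an intensity trend in R 4.3.3. Season differences came from a model of the 24 groups (24 residual degrees of freedom) and rhythms from a 24 h cosine in each season (36 residual degrees of freedom). Tests were two-sided, Benjamini-Hochberg adjustment ran over all genes of a fit, and a gene was called below 0.05. The scripts were tested on simulated data.

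The genes, lists, tests and alternatives were chosen with earlier results of these data known. All 9 genes are named. From each list up to 3 genes were named, those with the largest season difference among those called, and for likeness the genes with the highest Pearson correlation (5 for gnrh1 and 3 for the others, of which the first is given), passing over transcripts without a name. The GPR54 genes were added after their values were seen. Alternatives were median-ratio scaling, quantile normalization, the other pseudocount, no filter, array weights, leaving out each library or the 3 spring libraries that stood apart, an additive season and hour model, fits of 2 seasons, an F test over hours and an exact permutation test.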

Additional observations from a re-analysis of the deposited data

Results flagged for a closer look

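The daily curve of the GPR54 gene LOC101162001, which encodes a kisspeptin receptor, differed between seasons (limma, adjusted p = 0.008968 over 16622 genes). Such a difference was called for 21.5% of all tested genes. For the GPR54-like gene LOC101172085 it was not called (limma adjusted p = 0.59 in the lower-level fit, where 14.6% of all genes were). The fitted curve of LOC101162001 had an amplitude of 0.29 on the log2 scale in autumn with a peak at hour 3.87 (adjusted p = 0.010) and of 0.21 in summer with a peak at hour 2.71 (adjusted p = 0.083). An autumn rhythm was called for 16.1% of all tested genes. In spring the amplitude was 0.17 with a peak at hour 15.4 (adjusted p = 0.27), and in winter it was 0.13 with a peak at hour 8.92 (adjusted p = 0.48). At hour 2 the 2 libraries stood at 6.79 and 6.91 FPKM in autumn and at 7.45 and 7.71 in summer, above the 10 other libraries of each season. The share of all genes with such an hour was not computed. The rhythm in autumn lost its call without library 1 of autumn hour 18 (adjusted p = 0.057). That in summer passed the test after median-ratio scaling (adjusted p = 0.048), after quantile normalization (0.036), in the limma F test over clock hours (0.0031) and in 2 of 48 fits that each left out 1 library. The F test also called the hours averaged over seasons (adjusted p = 0.0034), which the cosine curve did not (0.17). Of all tested genes the F test called 15.1% in summer and 16.8% over the seasons together.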

How the results depend on the processing

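Of 48 season differences tested in 8 genes, 28 were called, 26 of these kept their direction and call under every alternative run for them, and 0 of the 28 changed direction. The 2 exceptions were gnrh3 in summer against winter and gnrh-r1 in winter against spring. Over all genes, a pair of seasons was called for 43.6% to 74.9% in the higher-level fit and for 35.5% to 66.9% in the lower-level fit. The share of all genes that kept a call under every alternative was not computed. The 28 include the calls of gnrh-r1 against spring, which are not independent of the filter it passed. All 21 differences of named list genes kept direction and call, but these genes were picked for their largest differences among called genes. That choice favours keeping the call, so the count says nothing about the other genes of the lists. The call of gnrh3 in summer above winter was lost after median-ratio scaling (adjusted p = 0.11), without the filter (0.053), in the additive model (0.070), in the exact permutation test (p = 0.072) and in 14 of 48 fits that each left out 1 library. That of gnrh-r1 was lost after quantile normalization (0.079), with array weights (0.061) and without the 3 spring libraries (0.19), each of which left 1 of the 2 genes of the lower-level fit called between winter and spring, and leaving out 1 library gave 1 to 2. Of the 20 differences that were not called, 10 were called under at least 1 alternative, most often gnrh3 in summer minus autumn (5 settings and 15 of 48 fits without 1 library) and kiss-2 in autumn minus spring (1 setting, array weights, and 8 of 48 fits). Differences that were not called turned direction for gnrh1 in autumn minus spring after median-ratio scaling (-0.022) and for kiss-2 in summer minus spring without the 3 spring libraries (-0.16); the cause was not tested. Leaving out 1 library gave -0.082 to 0.12 for the first and -0.073 to 0.19 for the second, -0.053 to 0.032 for gnrh3 in autumn minus winter and -0.059 to 0.026 for gnrh-r3 in summer minus autumn. For LOC101172085 autumn minus winter was -0.047 after median-ratio scaling and summer minus autumn was -0.016 after quantile normalization, and leaving out 1 library gave -0.11 to 0.13 and -0.075 to 0.17 for these, and -0.027 to 0.14 for summer minus winter.

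Counts of rhythmic genes over the whole table depended on the setting in spring and winter. In winter 254 genes were called, against 1394 with array weights, 402 without the 3 spring libraries and 462 in the F test over hours, and leaving out 1 library gave 45 to 396. In spring 430 were called, against 115 without the 3 libraries and 1044 in the F test, and leaving out 1 library gave 210 to 526. In the lower-level fit 193 were called in winter, against 983 with array weights and 315 without the 3 spring libraries (39 to 314 when 1 library was left out), and 388 in spring, against 110 without the 3 libraries (192 to 456). Of the genes described here, leaving out 1 library gave 0 to 1 called for the averaged curve and for the autumn curve (gnrh-r3), and 0 to 1 in the lower-level fit for summer against autumn (kiss-1). No paired analysis was possible because the labels give no replicate numbers within a group. The unknown depth limits what the low values of gnrh2, gnrh-r1 and kiss-1 can show.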
